A study of Mus musculus with 2 samples.

Results

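The nicotinic acetylcholine receptor of muscle and the MuSK pathway that clusters it were described across 2 libraries of mouse calf muscle. The 10 genes were chosen by name and function, with earlier results of these data known. They were the receptor subunit genes Chrna1, Chrnb1, Chrnd, Chrne and Chrng, the clustering genes Musk, Lrp4, Dok7 and Rapsn, and the acetylcholinesterase gene Ache. They are 10 of the 55536 annotated genes in the deposited tables. Total RNA was measured in the gastrocnemius of 2 adult male B6CASTF1/J mice aged 8 to 10 months, with 1 library for each animal and 300 ng of RNA in each. B6CASTF1/J mice are a cross of the inbred strains CAST/EiJ and C57BL/6J, and no allele of either parent was separated in the tables. The labels name 1 group and no treatment, and they number the animals separately under 1 shared donor identifier, so the spread given here is that between these 2 libraries.

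At the neuromuscular junction, the motor nerve releases acetylcholine onto a small patch of muscle membrane packed with receptors. The receptor is a ring of alpha, beta and delta subunits with either a gamma subunit, in fetal and denervated muscle, or an epsilon subunit, in innervated adult muscle. Agrin from the nerve binds LRP4, which switches on the receptor tyrosine kinase MuSK. Together with DOK7, its activator inside the cell, MuSK signals to rapsyn, the scaffold that holds receptors in clusters. Acetylcholinesterase in the cleft ends each signal by breaking down acetylcholine. Many of these genes are transcribed most strongly by the few nuclei beneath the synapse.

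The 10 junction genes took 4907 of 36792619 estimated gene counts in replicate 1 and 5515 of 37752252 in replicate 2. A gene with no count could still hold up to 3 counts, which is 0.0815 CPM (counts scaled to library size) in replicate 1 and 0.0795 CPM in replicate 2, for counting error alone. The fibre markers Ckm, Acta1, Ttn, Myh4, Atp2a1 and Pvalb averaged between 3894 and 17876 TPM, so the labelled tissue showed its defining genes. Markers of epithelium and neurons (Krt5, Krt14, Snap25 and Rbfox3) summed to 0.17 TPM in each animal, with Krt5 and Krt14 at 0. TPM is a relative transcript abundance, corrected for transcript length, and is the scale of every level below. In bulk tissue, fewer cells of a type and less RNA per cell cannot be told apart.

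A few sequences carry the transcript results and are shown first. The first set is the alternative coding segments of Musk and the last coding exon of Ache, read from the GENCODE M21 transcripts Musk-203 and Ache-201. Capitals mark the segment, and the lower-case bases are the 15 neighbouring bases of the spliced transcript. All 4 lie on the plus strand of mm10.
Musk 30-base exon (chr4:58327326-58327355): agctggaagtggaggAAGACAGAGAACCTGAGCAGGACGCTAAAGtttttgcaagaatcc
Musk 45-base exon extension (chr4:58347808-58347852): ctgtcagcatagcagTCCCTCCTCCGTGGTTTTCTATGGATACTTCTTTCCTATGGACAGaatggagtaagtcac
Musk 24-base exon (chr4:58356482-58356505): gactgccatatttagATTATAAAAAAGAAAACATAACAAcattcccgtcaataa
Ache last coding exon (chr5:137294117-137294235): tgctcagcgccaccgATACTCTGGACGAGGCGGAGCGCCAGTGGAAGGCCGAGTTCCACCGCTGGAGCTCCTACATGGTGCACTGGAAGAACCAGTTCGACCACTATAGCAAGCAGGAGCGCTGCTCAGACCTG
The 30-, 45- and 24-base segments each keep the reading frame, adding 10, 15 and 8 codons. The Ache exon is 119 bases long and encodes the tail of the synaptic enzyme, the form that attaches to its anchors ColQ and PRiMA.

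The second set is the 250 bases before the RefSeq start of Chrne and of Chrng, the subunit genes that replace each other in development (GRCm38.p6, each written 5′ to 3′ along its gene). The windows end just before the annotated starts of Chrne-202 and Chrng-201. They are not upstream of the whole gene spans given below, since Chrng-202 begins 1153 bases, and Chrne-201 21 bases, upstream of the window's last base. Capitals mark the N-box CCGGAA, known as a binding site of the factor GABP in synaptic genes, and the E-box CAGCTG, a form bound by myogenic factors. Both were searched on both strands, and the motifs do not overlap in these windows.
Chrne (chr11:70619195-70619444, minus strand): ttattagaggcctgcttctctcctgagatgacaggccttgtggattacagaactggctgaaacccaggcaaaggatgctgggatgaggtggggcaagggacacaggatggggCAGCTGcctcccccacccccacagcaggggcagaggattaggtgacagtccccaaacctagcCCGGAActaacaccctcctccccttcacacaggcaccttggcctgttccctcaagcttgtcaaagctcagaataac
Chrng (chr1:87205561-87205810, plus strand): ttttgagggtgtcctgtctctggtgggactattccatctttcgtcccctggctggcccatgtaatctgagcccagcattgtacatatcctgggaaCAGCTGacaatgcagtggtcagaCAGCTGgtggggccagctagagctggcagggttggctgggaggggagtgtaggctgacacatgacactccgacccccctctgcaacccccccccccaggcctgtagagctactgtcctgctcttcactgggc
The Chrne window held 1 N-box, whose first base lies 76 bases before that start, and 1 E-box that begins 138 bases before it. The Chrng window held no N-box and 2 E-boxes, beginning 155 and 132 bases before the start. Of the 10 genes, 7 had a window in the reference table, and 1 of those 7 held the N-box while 4 held the E-box (Chrne, Chrng, Chrna1 and Musk). Among all 32851 windows of the same length, 12.0% held the N-box, 13.0% the E-box and 1.29% both. These matches describe letters in a window, and no binding was measured.

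The subunits of the adult receptor were all detected, while the fetal subunit was at the limit of detection. Chrnb1 (ENSMUSG00000041189.9, chromosome 11, 69784036 to 69795943), the beta subunit, held 10.4 TPM in replicate 1 and 11.5 TPM in replicate 2. Chrne (ENSMUSG00000014609.16, chromosome 11, 70614883 to 70619216), the adult epsilon subunit, held 6.73 TPM in replicate 1 and 9.02 TPM in replicate 2. Chrna1 (ENSMUSG00000027107.3, chromosome 2, 73563215 to 73580338), the alpha subunit that carries most of the acetylcholine site, held 2.09 TPM in replicate 1 and 1.82 TPM in replicate 2. These 3 subunits kept the same order in both animals, with the beta subunit highest. Chrnd (ENSMUSG00000026251.13, chromosome 1, 87190607 to 87200070), the delta subunit, held 0.96 TPM in replicate 1 and 0.79 TPM in replicate 2. Its 52 counts in replicate 1 (exact Poisson interval at 95% 38.8 to 68.2) and 64 counts in replicate 2 (49.3 to 81.7) make it the least precisely measured of the 4. TPM and counts of Chrnd thus put the animals in opposite order. The short transcript Chrnd-203, which retains an intron, made up 0.27 TPM in replicate 1 on 2.98 counts, and 0 TPM in replicate 2. The second quantification gave Chrnd 0.54 TPM in replicate 1 and 0.72 TPM in replicate 2. Chrng (ENSMUSG00000026253.14, chromosome 1, 87204657 to 87212694), the fetal gamma subunit, starts 4586 bases after the end of Chrnd and had 1 count (0.01 TPM) in replicate 1 and 0 counts in replicate 2.

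RNA of the epsilon subunit stood far above that of the gamma subunit in each animal. Per base of transcript, Chrne was 454-fold above Chrng in replicate 1, with a 95% counting interval of 80.8 to 18022 that reflects the single Chrng count. In replicate 2 Chrne was at least 230-fold higher, computed against the floor of 3 counts in that library (0.0392 TPM). On the scale of log2(TPM + 0.1) the difference was 6.23 ± 0.39 (SD, n = 2), a value set largely by the added 0.1 TPM.

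The alpha and delta subunit genes lay well below the beta subunit gene in level. On the log2(TPM + 0.1) scale, Chrna1 relative to Chrnb1 was -2.26 in replicate 1 and -2.59 in replicate 2. Chrnd relative to Chrnb1 was -3.31 in replicate 1 and -3.70 in replicate 2, and Chrne relative to Chrnb1 was -0.62 in replicate 1 and -0.34 in replicate 2. These differences were larger than the spread between animals, and all 3 genes were below Chrnb1 in 2 of 2 animals. In the assembled receptor the alpha subunit is present in more copies than any other. The size of the alpha difference depended on the length used. The leading Chrna1 transcript is annotated as 4386 bases with 1371 coding bases, and that of Chrnb1 as 2155 bases with 1503 coding bases. All counts of each gene, divided by the coding length of its leading transcript, gave a log2 difference of -1.29 ± 0.26 for Chrna1 (SD, n = 2). Those counts include reads outside the coding bases. This alternative was chosen after seeing the data, and it also put Chrne at -1.10 ± 0.09 and Chrnd at -3.43 ± 0.03.

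Among the clustering genes, the kinase was the most abundant and its co-receptor the least. Musk (ENSMUSG00000057280.15, chromosome 4, 58285960 to 58374303) was the highest of the 10 genes, with 24.0 TPM in replicate 1 and 19.4 TPM in replicate 2. That placed it at rank 2354 of 22015 nuclear protein-coding genes. Rapsn (ENSMUSG00000002104.11, chromosome 2, 91035620 to 91045729), the receptor scaffold, followed with 12.1 TPM in replicate 1 and 13.7 TPM in replicate 2. Dok7 (ENSMUSG00000044716.12, chromosome 5, 35056766 to 35087839), the activator of MuSK, held 8.42 TPM in replicate 1 and 8.01 TPM in replicate 2. Lrp4 (ENSMUSG00000027253.15, chromosome 2, 91457511 to 91513779), the agrin receptor, held 3.85 TPM in replicate 1 and 4.38 TPM in replicate 2. The animals did not overlap between any of these 4 genes. On the log2(TPM + 0.1) scale, Musk exceeded Lrp4 by 2.61 in replicate 1 and 2.12 in replicate 2, and it exceeded Dok7 by 1.501 in replicate 1 and 1.27 in replicate 2. Rapsn stood close to the beta subunit, at a log2 difference of 0.22 in replicate 1 and 0.25 in replicate 2, although the second quantification put it at -0.05 in replicate 1 and 0.26 in replicate 2.

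Ache (ENSMUSG00000023328.14, chromosome 5, 137287519 to 137294466), which encodes the enzyme of the cleft, held 9.28 TPM in replicate 1 and 10.8 TPM in replicate 2, overlapping the range of Chrnb1. In descending order of mean level the genes ran Musk, Rapsn, Chrnb1, Ache, Dok7, Chrne, Lrp4, Chrna1, Chrnd and Chrng. Of the 9 neighbouring pairs in that order, 2 overlapped between animals (Chrnb1 with Ache, and Dok7 with Chrne). In all, 8 of the 10 genes held the same place in both animals, and Dok7 and Chrne exchanged places. The median level of the 10 genes was 8.05 TPM, beside 7.77 TPM for the 10095 nuclear protein-coding genes at 1 TPM or more. Chrnd and Chrng are under that limit. Over all 22015 nuclear protein-coding genes the median was 0.57 TPM. All 10 together held 77.9 TPM in replicate 1 and 79.4 TPM in replicate 2, which was 0.0181% of the nuclear protein-coding TPM in each.

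**Figure D1:**
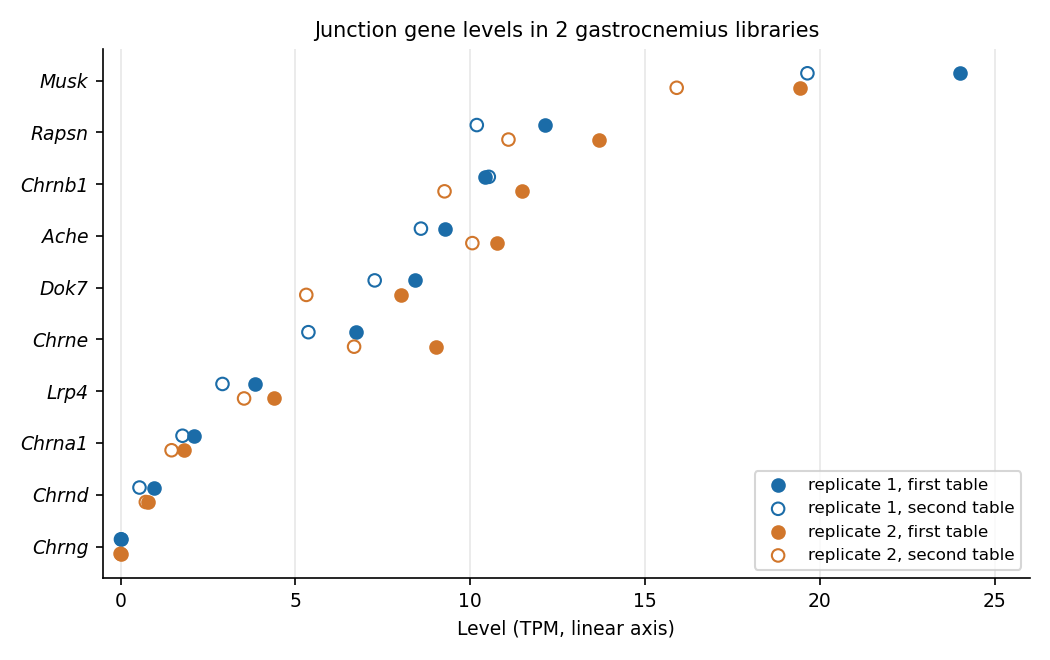
Level in TPM (linear axis) of the 10 junction genes, 1 row per gene, with replicate 1 drawn above replicate 2, filled points for the first deposited quantification and open points for the second. Musk lies highest at 24.0 TPM in replicate 1 and 19.4 TPM in replicate 2, and Chrng lies at or near 0 in both animals and both quantifications.

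The second quantification, made by the authors from reads and an index, gave lower levels for most of these genes and kept the ends of the order. Musk was again highest, with 19.6 TPM in replicate 1 and 15.9 TPM in replicate 2, and Chrng was again lowest, with 0.0116 TPM in replicate 1 and 0 TPM in replicate 2. Chrnb1 held 10.5 TPM in replicate 1 and 9.26 TPM in replicate 2 there, and Dok7 held 7.27 TPM in replicate 1 and 5.31 TPM in replicate 2. Read sharing was low. Between 96.0% (Chrna1) and 100% of the 31-base words of each gene's transcripts occurred in no other annotated gene. The genes annotated on top of Chrne, Rapsn and Ache had 0 or 1 count in each library.

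MuSK is made in several forms, and the same annotated form led in both animals. Musk-202 held 74.5% of Musk TPM in replicate 1 and 72.7% in replicate 2, or 73.6% ± 1.23 (SD, n = 2). It lacks the 30-base exon and the 45-base extension printed above and contains the 24-base exon. The second quantification also put it first, at 71.9% in replicate 1 and 66.9% in replicate 2. The minor transcripts were less stable. Musk-203 held 17.0% in replicate 1 and 3.82% in replicate 2, while Musk-208 was at 0% in replicate 1 and held 10.7% in replicate 2. The second quantification turned both differences round, with Musk-203 at 11.7% in replicate 1 and 16.6% in replicate 2, and Musk-208 at 6.63% in replicate 1 and 0% in replicate 2. Musk-207 held 1.23% in replicate 1 and 9.46% in replicate 2, and the noncoding Musk-206 held 7.33% in replicate 1 and 3.35% in replicate 2.

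**Figure D2:**
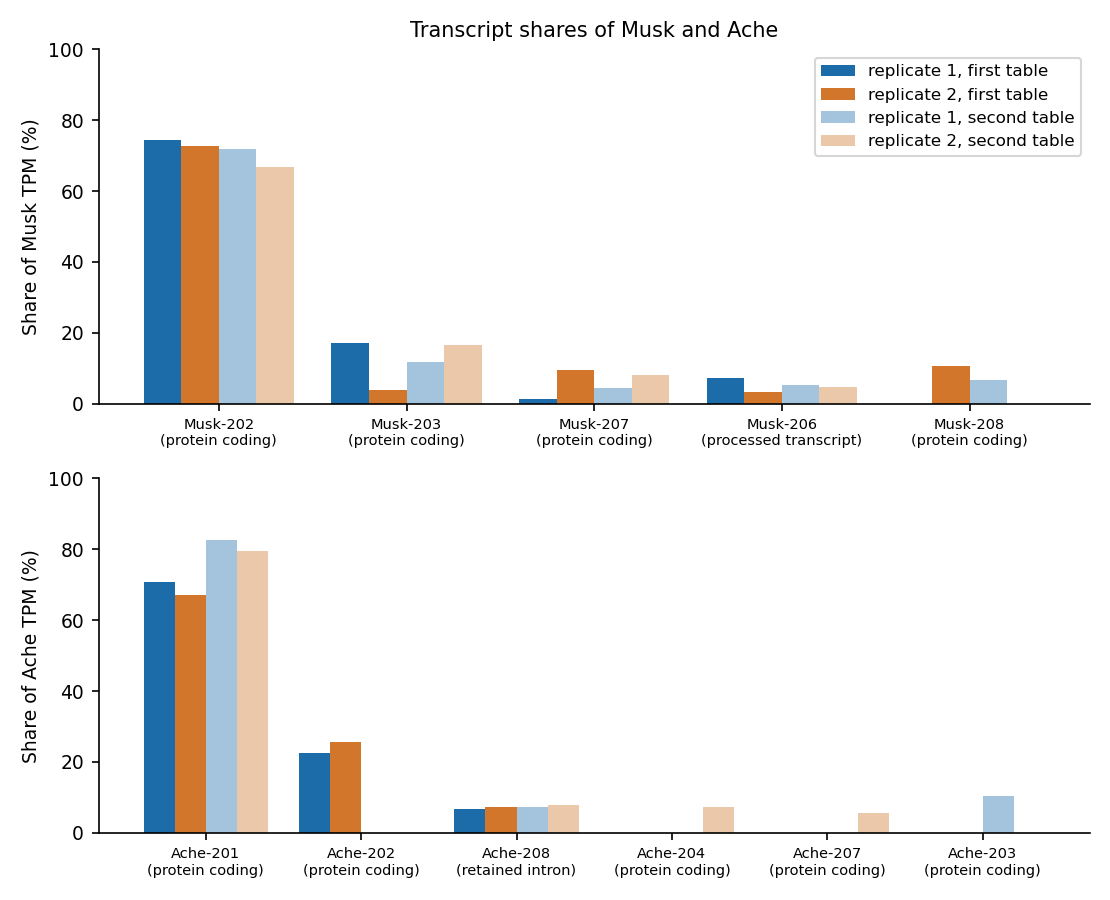
Share of gene TPM in percent for the annotated transcripts of Musk (top) and Ache (bottom) that reached 5% in any library and quantification. Solid bars are the first quantification and pale bars the second, with replicate 1 left of replicate 2 in each pair. Musk-202 and Ache-201 lead in every pair, and the minor transcripts differ between animals and quantifications.

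Summed over transcripts, the share of coding Musk RNA with each segment had an SD between animals of 3.604 percentage points for the 30-base exon, 5.98 for the 24-base exon and 10.2 for the 45-base extension. The 30-base exon, present in 4 of the 7 coding transcripts, was carried by 19.7% of coding Musk TPM in replicate 1 and 24.8% in replicate 2. The second quantification gave 24.1% in replicate 1 and 25.96% in replicate 2. The 24-base exon was carried by 98.7% of coding TPM in replicate 1 and 90.2% in replicate 2, against 95.3% in replicate 1 and 91.5% in replicate 2 in the second quantification. The 45-base extension occurs only in Musk-203, and its share was 18.3% in replicate 1 and 3.94% in replicate 2, against 12.4% in replicate 1 and 17.5% in replicate 2 in the second quantification. The animals thus changed order between quantifications for the 45-base extension, and they kept it for the other 2 segments. These shares are estimates that assign reads among overlapping transcripts, and no reads across the exon junctions were counted.

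**Figure D3:**
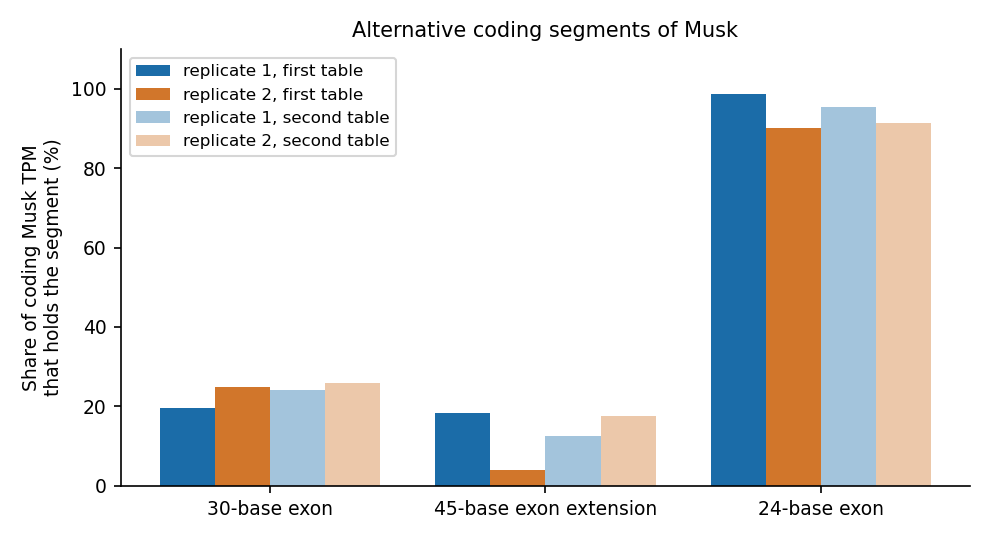
Share of coding Musk TPM in percent carried by transcripts with the 30-base exon, the 45-base extension or the 24-base exon. Solid bars are the first quantification and pale bars the second, with replicate 1 left of replicate 2. The 24-base exon stands at 90.2% or more in each bar, the 30-base exon between 19.7% and 25.96%, and the 45-base extension between 3.94% and 18.3%.

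Ache RNA was mostly assigned to annotated transcripts with the synaptic tail. Ache-201 held 70.6% of Ache TPM in replicate 1 and 67.0% in replicate 2, or 68.8% ± 2.57 (SD, n = 2). Ache-202, which has the same coding exons, held 22.6% in replicate 1 and 25.8% in replicate 2 in the first quantification, and 0% in both animals in the second. Ache-201 and Ache-202 together held 93.2% in replicate 1 and 92.7% in replicate 2, or 82.5% in replicate 1 and 79.4% in replicate 2 by the second quantification. The last coding exon printed above was carried by 100% of coding Ache TPM in both animals in the first quantification, and by 88.9% in replicate 1 and 86.1% in replicate 2 in the second. The remainder in the second quantification lay on short transcripts annotated with 121 coding bases, Ache-203 in replicate 1 and Ache-204 and Ache-207 in replicate 2. Every annotated Ache transcript with more than 121 coding bases holds this exon. A full-length form with another tail therefore could not be counted, and these shares cannot show its absence. Ache-208, which retains introns, held 6.82% in replicate 1 and 7.27% in replicate 2.

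For the other genes, 1 transcript also led. Counting both animals and both quantifications, the same transcript was highest throughout for 7 of the 9 genes with more than 1 annotated transcript, all but Chrnd and Chrng, and Chrna1 has only 1. The leading Chrnb1 transcript held 98.3% of its gene in replicate 1 and 100% in replicate 2, or 75.2% in replicate 1 and 96.9% in replicate 2 by the second quantification. Rapsn-201 held 87.4% in replicate 1 and 94.2% in replicate 2, or 78.9% in replicate 1 and 71.1% in replicate 2 by the second, and the leading Lrp4 transcript held 80.1% in replicate 1 and 77.5% in replicate 2, or 90.5% in replicate 1 and 79.4% in replicate 2 by the second. Dok7 was divided more evenly by TPM, with its leading transcript at 57.5% in replicate 1 and 53.1% in replicate 2. The second quantification gave that transcript 57.96% in replicate 1 and 70.3% in replicate 2. A Dok7 transcript of 390 bases held 2.43 TPM (28.8%) on 17.73 counts in replicate 1. In replicate 2 it held 2.63 TPM (32.8%) on 21.75 counts. By counts, the leading Dok7 transcript held 326.61 of 414 in replicate 1 and 324.92 of 424 in replicate 2. The more even division is thus one of TPM and not of counts. Chrne-202 held 88.3% in replicate 1 and 48.1% in replicate 2, where Chrne-201 took 28.1%, and these transcripts differ by 3 coding bases. The second quantification put Chrne-202 at 100% in replicate 1 and 51.4% in replicate 2. Chrnd-201 held 43.2% in replicate 1 and 100% in replicate 2, on the 52 and 64 counts given above. The second quantification turned this round, with Chrnd-201 at 99.999% in replicate 1 and 0.14% in replicate 2, where Chrnd-202 took 80.8%.

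None of the 9 tested junction genes reached 1.5-fold between the 2 animals, a distance that 12.2% of all tested genes reached. Among only 9 genes, a result of none is close to that share. The 12.2% also covers genes at lower counts than most of these 9. The exact two-sided binomial test compares these 2 libraries and not 2 conditions, so its calls have no replicate check. It called 3 of the 9 tested genes, with Chrng under the limit of a mean of 10 counts, where it called 21.6% of all 14101 tested genes. It called 1 as higher in replicate 1, where 10.8% of all genes were, and 2 as lower, where 10.7% were. The 21.6% also covers genes at lower counts, which are called less often. At a mean of 100 or more rounded counts, the test called 4 of 8 junction genes and 2671 of 9516 of all genes. Musk was higher in replicate 1, with 1863 counts in replicate 1 and 1757 in replicate 2 and a log2 ratio of 0.23 after scaling (95% counting interval 0.14 to 0.33, exact binomial test, adjusted p = 1.55e-05). Ache was lower in replicate 1, with 511 counts in replicate 1 and 674 in replicate 2 and a log2 ratio of -0.25 (interval -0.42 to -0.08, exact binomial test, adjusted p = 0.0191). Rapsn was also lower in replicate 1, with 435 counts in replicate 1 and 571 in replicate 2 and a log2 ratio of -0.24 (interval -0.43 to -0.06, exact binomial test, adjusted p = 0.0424).

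The 6 other tested genes did not pass. Chrne had a log2 ratio of -0.31 (exact binomial test, adjusted p = 0.0504), Lrp4 of -0.19 (adjusted p = 0.0617 by the exact test) and Chrnb1 of -0.19 (adjusted p = 0.0987 by the exact test). Chrna1 had 0.18, Dok7 0.12 and Chrnd -0.15, the last with a counting interval of -0.71 to 0.40. The median absolute log2 ratio of the 9 genes was 0.19, beside 0.16 over all tested genes and 0.12 over the 9515 with a mean of 100 or more counts. With an assumed biological coefficient of variation of 0.1 in edgeR's exact test, 0 of the 9 were called, and 6 had an unadjusted p under 0.05 in the binomial test. Scaling to the ERCC spike-ins, which moved the median of all genes by 0.14 (log2), ended the calls of Rapsn (adjusted p = 0.481) and Ache (adjusted p = 0.388) in the exact test, brought in Chrna1 and Dok7 as higher in replicate 1, and put Chrnd at 0.00. Total counts brought in Chrne, Lrp4 and Chrnb1 as lower and put Dok7 at 0.00. DESeq2 size factors brought in Chrne (exact binomial test, adjusted p = 0.0456). Without the count limit, Rapsn was not called either (exact binomial test, adjusted p = 0.0627).

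**Figure D4:**
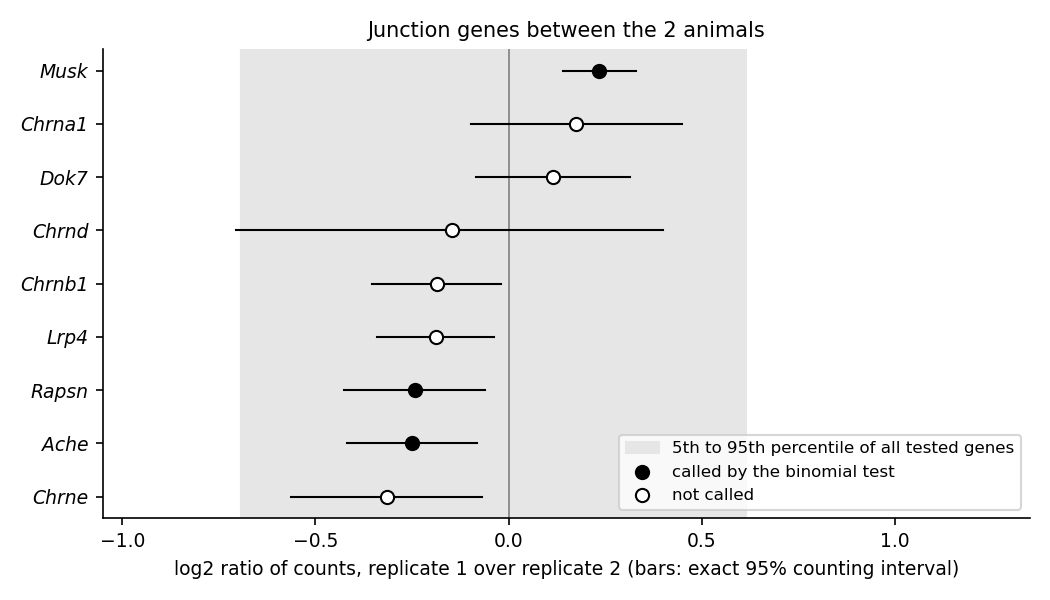
Log2 ratio of counts, replicate 1 over replicate 2, for the 9 tested junction genes, with bars for the exact 95% counting interval and filled points for genes called by the binomial test. The grey band spans the 5th to 95th percentile of all tested genes, from -0.69 to 0.62. All 9 points lie inside it, with Musk at 0.23 and Chrne at -0.31 as the outermost.

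Acetylcholine receptor genes outside the muscle type were at low levels. Of 11 other nicotinic subunit genes, only Chrna9 passed 0.5 TPM, with 1.74 TPM in replicate 1 and 0.79 TPM in replicate 2. Chrna9, known from hair cells of the inner ear, had 51 counts in replicate 1 and 16 in replicate 2, a log2 ratio of 1.76 (exact binomial test, adjusted p = 2.97e-05). It was also called at the assumed variation of 0.1 (edgeR's exact test, adjusted p = 0.00498). The 5 muscarinic receptor genes reached at most a mean of 0.085 TPM, 0.06 TPM in replicate 1 and 0.11 TPM in replicate 2 for Chrm3.

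Many partners of the pathway, which also serve other tasks in the fibre, stood above Musk in level. Of 23 partners of agrin and MuSK signalling, 21 had a mean of 1 TPM or more and the median was 26.03 TPM. The test called 5 of the 23 as higher in replicate 1 and 3 as lower, against 10.8% higher and 10.7% lower among all tested genes. Ywhag, a 14-3-3 adaptor, averaged 133 TPM, Rac1, a small GTPase of the cytoskeleton, 102 TPM and Ctnnb1, beta-catenin, 89.4 TPM. Agrn, which encodes agrin, held 1.51 TPM in replicate 1 and 2.41 TPM in replicate 2, a log2 ratio of -0.53 (exact binomial test, adjusted p = 0.000348). Muscle makes agrin too, and the form that the nerve supplies was not separated here.

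Factors tied to synaptic transcription were modest in level. Of 10 neuregulin receptors and synaptic transcription factors, 5 averaged 1 TPM or more. The test called 2 of the 9 tested, or 22.2% beside 21.6% of all tested genes. Both were higher in replicate 1, where 10.8% of all genes were. Gabpa, the DNA-binding subunit of the factor that recognises the N-box, held 9.78 TPM in replicate 1 and 9.50 TPM in replicate 2 (log2 ratio 0.16, exact binomial test, adjusted p = 0.0493). That call was lost with DESeq2 size factors (adjusted p = 0.0595), total counts (0.620), no count limit (0.0728) and the second quantification (0.103), all by the exact test. Its partner Gabpb2 held 3.11 TPM in replicate 1 and 2.81 TPM in replicate 2. Nfe2l2, a factor of the oxidative stress response, held 15.5 TPM in replicate 1 and 12.5 TPM in replicate 2 and was called.

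The anchors of acetylcholinesterase were present in both animals. Colq, the collagen tail that fixes the enzyme in the cleft, held 2.97 TPM in replicate 1 and 2.60 TPM in replicate 2. Prima1, the membrane anchor, held 5.45 TPM in replicate 1 and 3.81 TPM in replicate 2 (log2 ratio 0.48, exact binomial test, adjusted p = 0.0775), and was called with spike-in scaling and in the second quantification. Hspg2, perlecan, which binds ColQ, averaged 23.0 TPM and was the 1 called gene of 5, or 20.0%, beside 21.6% of all genes. Its log2 ratio was -0.06 on 7355 counts in replicate 1 and 8512 in replicate 2 (exact binomial test, adjusted p = 0.0414). Spike-in scaling turned it to 0.09 (exact binomial test, adjusted p = 0.000586), and without the count limit it was not called (adjusted p = 0.0614), so no direction is given.

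Structural genes of the synapse reached higher levels than any of the 10 junction genes. Of 18 matrix and adhesion genes, 1 was called higher and 4 lower in replicate 1, 27.8% in all where 21.6% of all genes were called, with Itgb1, an integrin, at 72.4 TPM, Dag1, dystroglycan, at 66.4 TPM and Lamb2, the synaptic laminin chain, at 48.1 TPM on average. Of 13 cytoskeletal genes, 3 were called higher and 5 lower in replicate 1, 61.5% in all beside the same 21.6%. Plec, the linker plectin, averaged 384 TPM and Dtna, a dystrobrevin, 40.4 TPM. Sntb1, a syntrophin, held 0.83 TPM in replicate 1 and 2.19 TPM in replicate 2, a log2 ratio of -1.02 (exact binomial test, adjusted p = 2.50e-08). Of 13 genes for receptor glycosylation and assembly, 12 were matched in the annotation and 10 tested, of which 2 were called higher and 0 lower in replicate 1, 20.0% beside the same 21.6%. Their leaders by level were Unc45b, a myosin chaperone, at 89.9 TPM, Ubqln1, a ubiquilin, at 20.2 TPM and Gfpt1, the first enzyme of the hexosamine pathway, at 14.7 TPM. Over these 6 lists of 78 tested genes, 26 were called, 33.3% beside 21.6% of all tested genes, and 5 were 1.5-fold apart, 6.41% beside 12.2%. At a mean of 100 or more rounded counts, 27 of 62 list genes were called, beside 2671 of 9516 of all genes. These lists were chosen with results of these libraries known, so the shares are no independent evidence. The directions followed the scaling. The 26 calls were 13 higher and 13 lower in replicate 1, against 4 higher and 36 lower with total counts and 33 higher and 4 lower with spike-ins. All tested genes moved likewise, with 1529 higher and 1514 lower, against 735 higher and 3628 lower with total counts and 4370 higher and 648 lower with spike-ins.

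Several genes of the list of myogenic and E-box factors were far apart between the animals. Of 12 myogenic and E-box factors, 4 were called higher and 4 lower in replicate 1, 66.7% in all beside 21.6% of all tested genes, and 5 were 1.5-fold apart, 41.7% beside 12.2%. With spike-in scaling 5 were called higher and 2 lower. This list was also chosen with results of these libraries known, so its share of calls is no independent evidence. Myog, the myogenin gene, held 6.83 TPM in replicate 1 and 1.71 TPM in replicate 2, a log2 ratio of 1.95 (exact binomial test, adjusted p = 6.14e-26). Bhlhe41, a repressor of the circadian system that binds E-boxes, held 17.7 TPM in replicate 1 and 34.8 TPM in replicate 2, a log2 ratio of -0.91, and was called. Myf6, the most muscle-fibre-specific of the myogenic factors, held 61.2 TPM in replicate 1 and 49.7 TPM in replicate 2, and was called.

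Genes known to respond to loss of the nerve form a list that includes Musk, Chrna1, Chrng and Myog. Of its 14 tested genes, 7 were called higher and 2 lower in replicate 1. That is 50% higher and 14.3% lower, beside 10.8% higher and 10.7% lower among all tested genes. The list was chosen with results of these libraries known, so the count is no independent evidence of direction. Fbxo32 and Trim63, ubiquitin ligases of muscle wasting, averaged 80.0 TPM and 82.5 TPM. Chrng, also of that list, was at 1 count in replicate 1 and 0 counts in replicate 2, and Chrna1 was not called, while Musk and Myog were both higher in replicate 1.

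Markers of nerve and glia were low. In the motor terminal list, Chat, the enzyme that makes acetylcholine, and Slc18a3, its vesicle transporter, were at 0 in both animals, and the 9 genes summed to 8.04 TPM in replicate 1 and 8.37 TPM in replicate 2. Of those sums Vamp1 made 6.26 TPM in replicate 1 and 6.93 TPM in replicate 2. The 8 Schwann cell genes summed to 31.2 TPM in replicate 1 and 32.3 TPM in replicate 2, and the myelin genes Mbp and Pmp22 averaged 12.6 TPM and 8.47 TPM. The 5 satellite cell genes summed to 9.31 TPM in replicate 1 and 9.45 TPM in replicate 2. The part of these cells in the differences above was not tested.

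**Figure D5:**
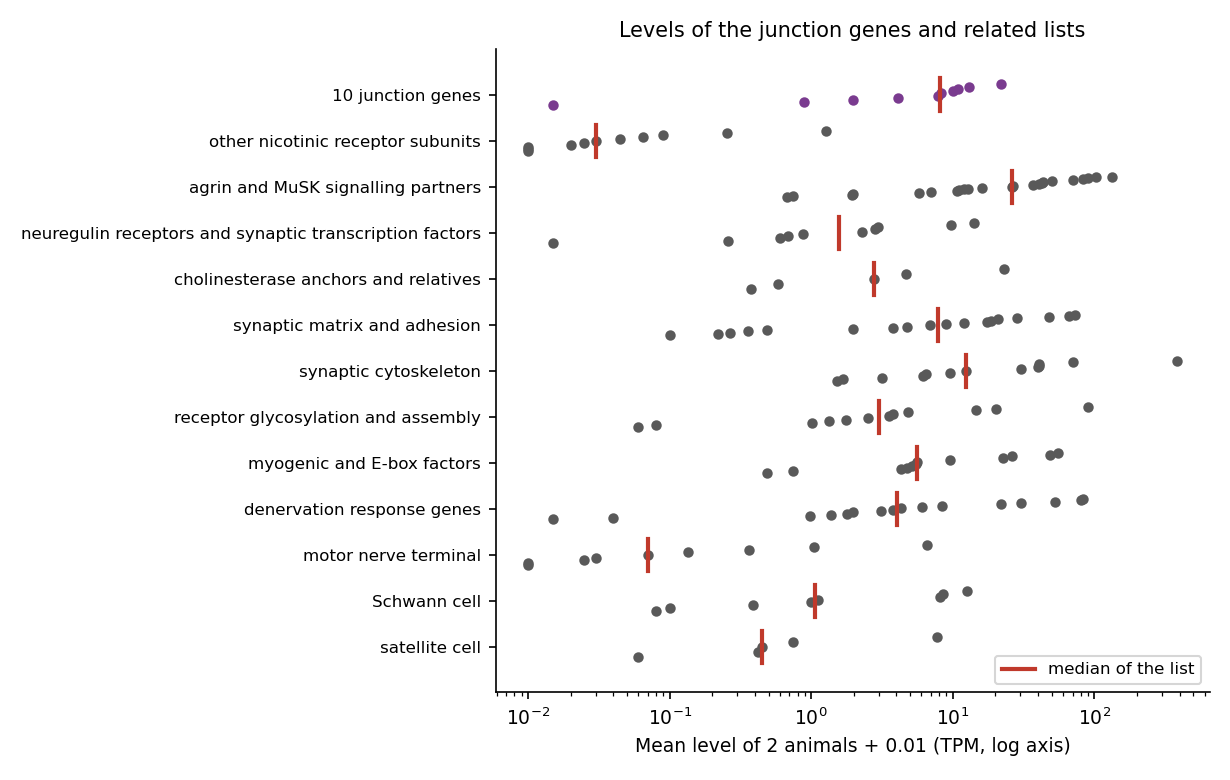
Mean level of the 2 animals plus 0.01 TPM (log axis) for each gene of the 10 junction genes and 12 related lists, 1 row per list, with a red bar at the list median. The 10 junction genes have a median of 8.05 TPM, the agrin and MuSK signalling partners one of 26.03 TPM, and the other nicotinic subunits lie almost all under 0.5 TPM.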

How the data were processed

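Gene counts, transcript shares and TPM were taken from each library's deposited tables, made with mm10 and GENCODE M21 per the deposited README. The first quantification started from transcriptome alignments and has columns named as in RSEM output, and the second started from reads, named as in kallisto output, per the file headers and README. The aligner, versions and strand setting are not given in the sources used here. Per the labels, libraries were directional, reduced in ribosomal RNA and spiked with ERCC controls. The authors' expected counts are estimated reads, not normalized, per the file headers. The authors' TPM values are scaled by length and library, spike-ins included. The percent column of the deposited transcript table is a transcript's share of its gene.

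Counts were rounded to whole numbers, scaled by TMM (edgeR 4.0.16, R 4.3.3) and compared by a two-sided exact binomial test, conditional on their sum, for genes at 10 counts or more on average (Benjamini-Hochberg adjustment, threshold 0.05), or by a 1.5-fold difference. Log2 ratios used a prior of 1 count. A model that compares 1 animal with the other leaves no residual degrees of freedom. A chi-square test of the counts gave 94.4 per degree of freedom between the libraries, more than sampling noise. It compares libraries only, so it cannot tell 2 animals from 2 libraries of 1 animal. The libraries were treated as separate animals because the labels number them so. The binomial test was run on simulated counts that held counting noise only, with 200 genes changed. Those counts had no variation between animals, so the run cannot show how the test performs on these libraries. Alternatives were other scalings (DESeq2 1.42.0 size factors, total counts, spike-ins), count limits, priors, an assumed variation, the second quantification and each animal left out. Other steps used Python 3.11.15, pandas 2.3.3 and scipy 1.17.1.

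The 10 genes and all lists were chosen with earlier results of these data known. From each list the text names the 3 genes of highest mean TPM and the 1 with the largest ratio at a mean of 100 or more counts, other acetylcholine receptors at 0.5 TPM or more, and Musk and Ache transcripts at 5% or more in any library. Chat, Slc18a3, Chrm3 and minor transcripts named under 5% are named beside that rule, and were picked with their values in view. Some genes that the rule takes are named in no sentence and not reported here.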

Additional observations from a re-analysis of the deposited data

How the results depend on the processing

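Between animals, the log2 ratios of counts of the tested junction genes kept their direction in the alternatives run, apart from Chrnd, whose -0.15 became 0.00 under spike-in scaling. The 0.12 of Dok7 likewise fell to 0.00 with total counts, so its direction also depended on the scaling. By TPM, the order of the animals differed between the first and second quantification for Chrnb1 and Chrnd. No paired analysis was possible because the samples form 1 group. The count of junction genes called between animals was 3, and became 6 with total counts and 0 with an assumed variation of 0.1. For the related lists 26 called genes became 40 with total counts and 1 with the assumed variation, and 5 genes at 1.5-fold became 2 at 2-fold. Over all genes 3043 calls became 5018 with spike-ins and 291 with the assumed variation, and 1715 genes at 1.5-fold became 611 at 2-fold. The cause was not tested. The median level of 8.05 TPM became 6.16 TPM in the second quantification and 18.5 when only nuclear protein-coding genes make up the TPM total and ran from 7.58 to 8.52 TPM with either animal left out. The Chrne to Chrng log2 difference of 6.23 became 3.13 with 1 TPM added and 7.61 on counts, and ran from 5.96 to 6.51 over single animals. With nothing added it has no value in replicate 2. With 1 TPM added Chrna1 to Chrnb1 became -2.02 and Chrnd to Chrnb1 -2.67. Chrne to Chrnb1 was -0.48, and -0.71 in the second quantification. Per coding length, chosen after seeing the data, Chrna1 became -1.29 and Chrne -1.10. Over single animals these 3 ran from -2.59 to -2.26, from -3.70 to -3.31 and from -0.62 to -0.34. The Musk-202 share of 73.6% became 69.4% in the second quantification, 76.5% of counts and 77.8% of coding TPM, and 72.7% to 74.5% over single animals. The Ache-201 share of 68.8% became 81.0%, 65.6% and 74.0% in the same order, and 67.0% to 70.6% over single animals. Depth limits Chrng, with 1 count in all, and Chrnd.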
